A study of Mus musculus with 12 samples.

Results

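The interleukin-1 (IL-1) family of cytokines, with its receptors and decoys, was described in mouse lung through 10 genes: the ligands Il1a, Il1b, Il18 and Il33, the receptor antagonist Il1rn, the receptor chains Il1r1, Il1rap, Il1rl1 and Il18r1, and the decoy receptor Il1r2. Members were every probe set of the array annotated to exactly 1 of these symbols. That gave 16 of 45037 probe sets, for 9 of the 10 genes: 5 for Il1rap, 3 for Il1rn, 2 for Il1r1 and 1 each for Il1a, Il1b, Il1r2, Il18, Il33 and Il18r1. No probe set carried the symbol Il1rl1 alone, and that gene was not analysed here.

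Lung RNA of mice aged 8 to 12 weeks had been hybridised to 12 Affymetrix arrays, 3 in each of 4 groups. Lungs labelled rhPBEF & VALI had been given both recombinant human PBEF and injurious ventilation, at the dose and settings given below for each alone. Lungs labelled rhPBEF had been given the protein alone, 20 µg for each mouse, dissolved in water at 1.5 µl per gram and delivered through the trachea. Lungs labelled VALI had been ventilated for 4 hours with breaths of 30 ml per kg, and control lungs had received phosphate-buffered saline. As labelled, the liquid also differed between rhPBEF and control lungs, and its part in their differences was not tested. PBEF, or pre-B-cell colony-enhancing factor, is a cytokine-like name for nicotinamide phosphoribosyltransferase, an enzyme that cells also secrete. The labels give no strain, no interval between instillation and collection, no ventilated group at a low tidal volume, no test of the rhPBEF preparation for endotoxin, and no word on whether the ventilated mice also received saline. They do not say that replicates were separate mice, and the p-values therefore reflect array-to-array spread alone, which may be technical.

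IL-1α and IL-1β both signal through a receptor made of the chain encoded by Il1r1 and the accessory chain encoded by Il1rap, which recruits the adaptor MyD88 and activates NF-κB and AP-1. IL-1α is active as made and is released by damaged cells, whereas IL-1β is made as an inactive precursor that is cut by caspase-1 after an inflammasome assembles. The product of Il1rn occupies the receptor without signalling, and the product of Il1r2 binds IL-1 but lacks a signalling domain. IL-18 signals through Il18r1 and Il18rap, and IL-33, a nuclear alarmin of epithelial and stromal cells, through the product of Il1rl1. In the injured lung, IL-1 is known for drawing in neutrophils.

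Several of the genes are neighbours in the genome. In the RefSeq annotation of GRCm38.p6 the receptor genes lie in a row on chromosome 1, from Il1r2 (chr1:40084692-40125230) through Il1r1 (chr1:40222480-40316201), Il1rl2 (chr1:40324589-40367555), Il1rl1 (chr1:40404864-40465418) and Il18r1 (chr1:40465552-40500854) to Il18rap (chr1:40515362-40551707). Il1rn (chr2:24336860-24351491), Il1a (chr2:129299609-129310186) and Il1b (chr2:129364569-129371164) share chromosome 2. Il1rap (chr16:26581509-26730128), Il18 (chr9:50554700-50581841) and Il33 (chr19:29925113-29960718) lie apart. These are gene positions, and probe positions on the genome were not used here.

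Below are the 150 bases before the transcription start of the 3 genes that rose with the combined treatment and for which the RefSeq promoter table (GRCm38.p6) places that window at the outer end of the annotated gene. They are shown because the members that moved together can be compared at the sites where NF-κB, AP-1 and the TATA-binding protein are known to act. Windows are chr2:129371140-129371289 on the minus strand for Il1b, chr2:24336710-24336859 on the plus strand for the first of 3 Il1rn starts, and chr19:29924963-29925112 on the plus strand for the first of 2 Il33 starts. The last 25 bases of the Il1b window lie inside the annotated gene, and the Il1rn and Il33 windows lie outside theirs. Capitals mark TATAAA or TGANTCA, the AP-1 motif.
Il1b: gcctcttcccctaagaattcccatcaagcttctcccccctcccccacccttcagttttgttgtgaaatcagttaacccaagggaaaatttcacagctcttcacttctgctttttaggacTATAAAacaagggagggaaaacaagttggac
Il1rn: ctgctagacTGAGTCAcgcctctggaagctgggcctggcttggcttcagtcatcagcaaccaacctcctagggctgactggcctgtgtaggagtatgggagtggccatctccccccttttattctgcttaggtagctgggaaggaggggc
Il33: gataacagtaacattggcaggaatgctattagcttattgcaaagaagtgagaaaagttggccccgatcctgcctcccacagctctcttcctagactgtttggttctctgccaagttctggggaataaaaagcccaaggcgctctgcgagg

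The Il1b window held TATAAA 31 to 26 bases before the start, and the Il1rn window held TGAGTCA 141 to 135 bases before it. The first Il33 window held neither motif, and the window of the second Il33 start, inside the gene, held TATAAA 29 to 24 bases before that start. The Il1a window, which also lies inside the annotated gene, held both, TATAAA at 32 to 27 and TGACTCA at 12 to 6 bases before the start. Both strands of all 17 windows of the 10 genes were searched. TATAAA was in 3 of them and TGANTCA in 2, against 7.57% and 4.24% of the 32851 windows of that length in the table. The NF-κB consensus, in 4.6% of all windows, was in 0 of the 17. These matches describe letters in a short stretch, and no binding was measured.

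Values below are levels on the log2 scale as the authors normalised them, so a difference of 1 is a 2-fold change. Differences, standard errors and adjusted p-values come from limma (4 group means, Benjamini-Hochberg over all 45037 probe sets, threshold 0.05), and "rose" or "fell" is kept for what passed it. Array medians ran from 6.997 to 7.07, and correlations within groups from 0.983 to 0.997. The mean level of 5 alveolar type 2 cell markers was 13.36 to 13.69 on all arrays, as lung tissue holds. Muscle genes stood apart on a pair of arrays: the skeletal muscle markers averaged 9.73 on rhPBEF replicate 2 and 8.80 on VALI replicate 3, against 6.15 to 6.64 on the other 10. Calls of members that changed without that pair are given with that value. Levels of different probe sets cannot be ranked against each other, since each probe set has its own response.

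With rhPBEF & VALI, 5 members rose against control: the decoy Il1r2, the ligand Il1b, 1 of the 3 probe sets of the antagonist Il1rn, the ligand Il1a and the alarmin Il33, by 2.50-fold to 11.6-fold. Of all probe sets 1.6% rose and 1.42% fell in that comparison (720 and 638 probe sets), and 0 members fell. After centring every array on its median the split over all probe sets was 812 higher and 436 lower, with 5 members still higher. With rhPBEF alone, 1 member rose, Il1a, where 0.386% of all probe sets did. With VALI, 0 members passed limma's adjusted test, where 0.00666% of all probe sets rose, and 4 of the 16 members and 5544 of the 45037 probe sets had an unadjusted p under 0.05. The 3 comparisons share the same control arrays.

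**Figure D1:**
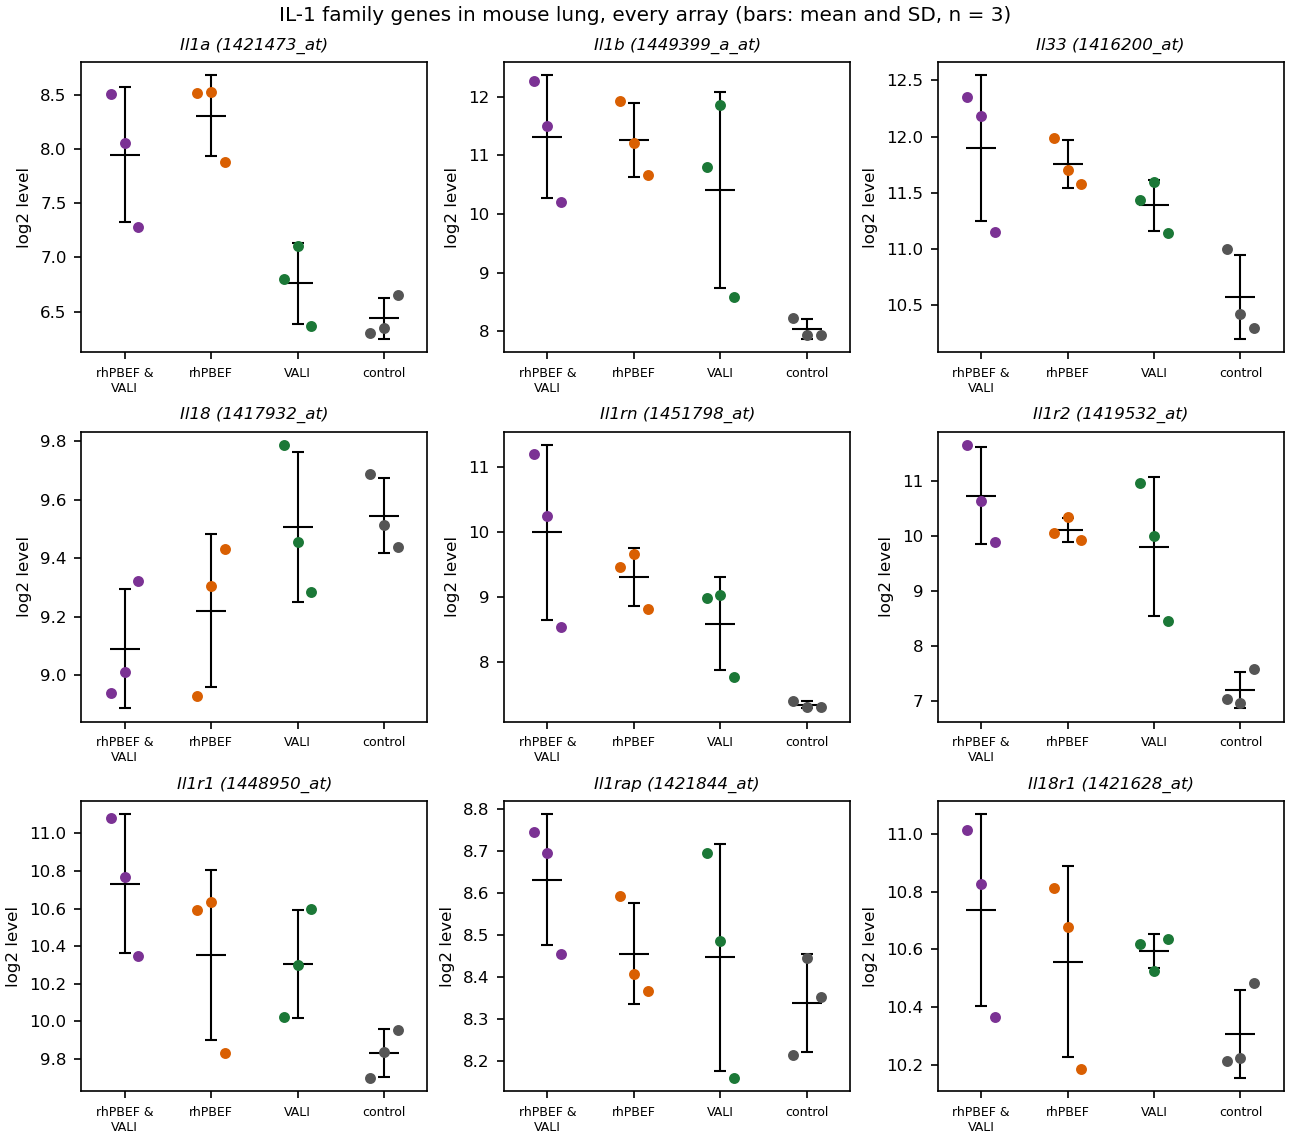
Level on the log2 scale of each IL-1 family member on each of the 12 arrays, 1 panel for each gene drawn from its probe set with the highest mean level, with groups from left to right rhPBEF & VALI, rhPBEF, VALI and control (points are arrays, long ticks group means, bars 1 SD each way, n = 3). Il1b, Il1r2, Il33 and Il1rn are above all 3 control arrays on all 9 treated arrays. Il1a separates the groups given rhPBEF from the others, and Il18 is the member whose mean is lowest with rhPBEF & VALI.

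Il1a, the ligand that is active as made, followed rhPBEF. Its level was 8.51, 8.05 and 7.28 in rhPBEF & VALI lungs, 8.51, 8.53 and 7.88 in rhPBEF lungs, 6.80, 7.11 and 6.37 in VALI lungs and 6.31, 6.35 and 6.66 in control lungs. Every array of a lung given rhPBEF was above every array of a lung not given it. VALI and control arrays overlapped.

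The rise of Il1a in rhPBEF lungs against control was 1.87 ± 0.29 (SE, 3.65-fold, limma adjusted p = 0.0196), and in rhPBEF & VALI lungs against control 1.51 ± 0.29 (2.84-fold, limma adjusted p = 0.026). VALI lungs differed from control by 0.32 ± 0.29, with a 95% interval of -0.32 to 0.96, which did not pass (limma adjusted p = 0.677). Set directly against VALI lungs, rhPBEF lungs were 1.54 ± 0.29 higher (2.92-fold, limma adjusted p = 0.0675) and rhPBEF & VALI lungs 1.19 ± 0.29 higher (limma adjusted p = 0.25). Neither direct difference passed, although the groups did not overlap in either. The first passed without rhPBEF & VALI replicate 1 or 3 (limma adjusted p = 0.0421 and 0.0154) and with 1 probe set per gene (0.0447), and the second without rhPBEF & VALI replicate 3 (0.0194). Leaving out other single arrays took the limma adjusted p of the first up to 0.236 and of the second up to 0.763. Il1a was the sole member without overlap in both of these comparisons, where 5.41% and 4.55% of all probe sets were higher without overlap.

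Both Il1a calls rested on few arrays. In rhPBEF lungs the adjusted p by limma was 0.108, 0.118 and 0.0676 without control replicate 1, 2 or 3, 0.101 and 0.108 without rhPBEF replicate 1 or 2, and 0.0969 without the pair of arrays high in muscle genes. In rhPBEF & VALI lungs it was 0.108, 0.103 and 0.0569 without control replicate 1, 2 or 3, and 0.105 and 0.0946 without rhPBEF & VALI replicate 1 or 2.

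Il1b, the ligand made as an inactive precursor, was high in all 3 treated groups. Its level was 12.26, 11.50 and 10.20 in rhPBEF & VALI lungs, 11.93, 11.21 and 10.67 in rhPBEF lungs, 10.81, 11.85 and 8.58 in VALI lungs and 8.23, 7.94 and 7.94 in control lungs. All 9 treated arrays lay above all 3 control arrays, and VALI replicate 3 lay nearest to them. The SD was 1.67 over the VALI arrays and 0.17 over the control arrays.

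Il1b rose by 3.29 ± 0.72 with rhPBEF & VALI (SE, 9.76-fold, limma adjusted p = 0.0374). The difference was nearly the same size with rhPBEF alone, 3.24 ± 0.72 (9.43-fold), but did not pass (limma adjusted p = 0.0961, against 0.0387 and 0.0175 without VALI replicate 2 or 3 and 0.00129 with only the groups compared), and neither did 2.38 ± 0.72 with VALI (5.21-fold, limma adjusted p = 0.244). The difference between rhPBEF & VALI lungs and rhPBEF lungs was 0.05, with a 95% interval of -1.52 to 1.62, so a change of up to about 3-fold in either direction could not be told from none. Against VALI lungs, rhPBEF & VALI lungs were 0.91 higher and rhPBEF lungs 0.86 higher, and without VALI replicate 3 these differences were -0.01 and -0.06. Without that array the difference of VALI from control was 3.30 (limma adjusted p = 0.0598). Over all single arrays left out, the limma adjusted p reached 0.567 with VALI and 0.289 with rhPBEF. The rise with rhPBEF & VALI did not pass without control replicate 1, 2 or 3, rhPBEF & VALI replicate 1 or 2, or rhPBEF replicate 2, with limma adjusted p-values of 0.118, 0.124, 0.0955, 0.168, 0.12 and 0.0505 in that order.

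Il33, the alarmin held in the nucleus of barrier cells, had levels of 12.35, 12.18 and 11.15 in rhPBEF & VALI lungs, 11.99, 11.70 and 11.57 in rhPBEF lungs, 11.43, 11.59 and 11.14 in VALI lungs and 11.003, 10.42 and 10.30 in control lungs. The control arrays were the 3 lowest of the 12. It rose by 1.32 ± 0.28 with rhPBEF & VALI (SE, 2.50-fold, limma adjusted p = 0.0359). With rhPBEF alone the difference was 1.18 ± 0.28 (limma adjusted p = 0.123) and with VALI 0.81 ± 0.28 (limma adjusted p = 0.302), and neither passed. The rhPBEF difference passed without rhPBEF & VALI replicate 3 (0.0166) and with only the groups compared (0.0231). Its limma adjusted p reached 0.338 with 1 array left out at a time. The call with rhPBEF & VALI was lost without any 1 control array (limma adjusted p = 0.0669, 0.132 and 0.106 for replicates 1, 2 and 3), without rhPBEF & VALI replicate 1 or 2 (0.159 and 0.131), with only the groups compared in the fit (0.0677), and without the pair of arrays high in muscle genes (0.0525).

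Il18, which epithelium and macrophages hold as a ready precursor, was the 1 ligand that was not higher in any treated group. Its level was 8.94, 9.01 and 9.32 in rhPBEF & VALI lungs, 8.93, 9.30 and 9.43 in rhPBEF lungs, 9.79, 9.45 and 9.28 in VALI lungs and 9.69, 9.51 and 9.44 in control lungs. The arrays of both groups given rhPBEF lay below the control arrays, the nearest pair by 0.0064. The differences from control were -0.45 ± 0.16 with rhPBEF & VALI, -0.32 ± 0.16 with rhPBEF and -0.04 ± 0.16 with VALI (SE, limma adjusted p = 0.148, 0.435 and 0.943), and none passed. Il18 was the 1 member that was lower without overlap in the first of these, as 16.1% of all probe sets were, and in the second, as 16.2% were.

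The 3 probe sets of Il1rn, the receptor antagonist, gave the same order of groups and different sizes. Probe set 1451798_at had levels of 11.19, 10.25 and 8.55 in rhPBEF & VALI lungs, 9.45, 9.67 and 8.81 in rhPBEF lungs, 8.98, 9.04 and 7.77 in VALI lungs and 7.41, 7.32 and 7.31 in control lungs. Probe set 1423017_a_at had 10.50, 9.48 and 7.67 in rhPBEF & VALI lungs, 9.02, 9.08 and 7.91 in rhPBEF lungs, 8.69, 8.53 and 7.32 in VALI lungs and 7.54, 7.52 and 7.35 in control lungs. In the first every treated array was above every control array, and in the second VALI replicate 3 was below them. Probe set 1425663_at had 7.99, 6.92 and 6.30 in rhPBEF & VALI lungs, 7.14, 6.98 and 6.42 in rhPBEF lungs, 7.24, 6.91 and 6.37 in VALI lungs and 6.43, 6.32 and 6.47 in control lungs, and all 3 of its treated groups overlapped control. On all 3 probe sets the third replicate was the lowest of its group in each treated group. The same held for Il1a, Il1b, Il33 and Il1r2, though not for Il18, so this pattern was not particular to Il1rn.

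**Figure D2:**
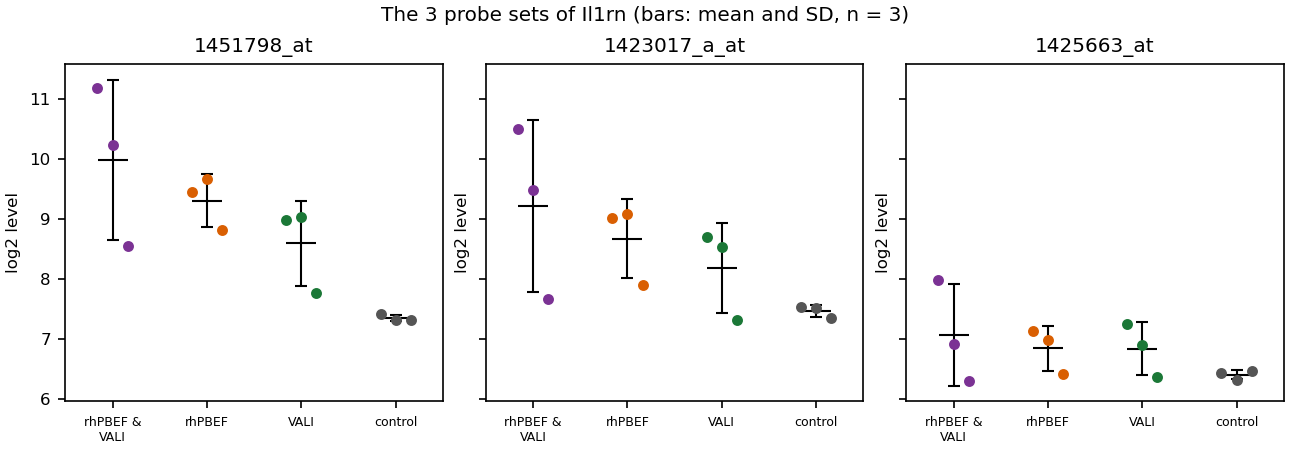
Level on the log2 scale of the 3 Il1rn probe sets on each of the 12 arrays, with groups from left to right rhPBEF & VALI, rhPBEF, VALI and control (points are arrays, long ticks group means, bars 1 SD each way, n = 3). The highest array of each probe set is rhPBEF & VALI replicate 1, and the distance between treated and control arrays is widest for 1451798_at and narrowest for 1425663_at.

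Against control, the difference with rhPBEF & VALI was 2.64 ± 0.55 (SE, 6.25-fold, limma adjusted p = 0.0316) for 1451798_at, 1.75 ± 0.60 (3.36-fold, limma adjusted p = 0.141) for 1423017_a_at and 0.66 ± 0.36 (1.59-fold, limma adjusted p = 0.35) for 1425663_at. Only the first passed. Without rhPBEF & VALI replicate 3 the difference of 1423017_a_at was 2.52 and passed as well (limma adjusted p = 0.0101), and without replicate 1 it was 1.11. With rhPBEF alone the differences were 1.96, 1.20 and 0.44, and with VALI 1.25, 0.71 and 0.43, and none passed. Without rhPBEF & VALI replicate 3, or with only the groups compared, 1451798_at passed with rhPBEF (limma adjusted p = 0.0311 and 0.00261). That value reached 0.476 when other single arrays were left out. The call of 1451798_at was lost without control replicate 1, 2 or 3 (limma adjusted p = 0.11, 0.112 and 0.0837), without rhPBEF & VALI replicate 1 or 2 (0.117 and 0.11), and with only the groups compared in the fit (0.0509). Which transcripts each probe set detects was not examined, and differences between the 3 were not tested.

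Il1r2, the decoy receptor, showed the largest difference from control of the 16 member probe sets in the comparisons of rhPBEF & VALI and of VALI. Its level was 11.65, 10.64 and 9.90 in rhPBEF & VALI lungs, 10.06, 10.34 and 9.93 in rhPBEF lungs, 10.97, 10.004 and 8.45 in VALI lungs and 7.04, 6.97 and 7.58 in control lungs. All 9 treated arrays were above the control arrays, the nearest being VALI replicate 3. The 3 rhPBEF arrays lay within 0.42 of each other.

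Il1r2 rose by 3.54 ± 0.55 with rhPBEF & VALI (SE, 11.6-fold, limma adjusted p = 0.0113). With rhPBEF alone the difference was 2.92 ± 0.55 (7.54-fold, limma adjusted p = 0.0508), just outside the threshold, and with VALI 2.61 ± 0.55 (6.11-fold, limma adjusted p = 0.15). Leaving out probe sets below the 40th percentile of mean level brought the value for rhPBEF to 0.0406, and fitting only the rhPBEF and control arrays to 0.000301. It also passed without VALI replicate 1, 2 or 3 (0.0261, 0.0489 and 0.0101) or rhPBEF & VALI replicate 1 or 3 (0.0371 and 0.0285). Those arrays belong to groups outside that comparison. It failed to pass when any 1 control array or rhPBEF replicate 1 or 2 was left out, and was 0.21 without rhPBEF replicate 2. The highest limma adjusted p with 1 array left out was 0.22. Without VALI replicate 3 the difference with VALI was 3.29 and passed (limma adjusted p = 0.0267). For VALI the limma adjusted p reached 0.439 when other single arrays were left out. The rise with rhPBEF & VALI did not pass without control replicate 1 or 2 (limma adjusted p = 0.0598 and 0.0633) or rhPBEF & VALI replicate 1 or 2 (0.0547 and 0.0504).

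None of the probe sets of the signalling receptor chains passed in any comparison. Il1r1, the chain that binds IL-1, had levels of 11.08, 10.77 and 10.35 in rhPBEF & VALI lungs, 10.59, 10.63 and 9.83 in rhPBEF lungs, 10.02, 10.30 and 10.60 in VALI lungs and 9.70, 9.84 and 9.95 in control lungs on probe set 1448950_at. Its rhPBEF & VALI and VALI arrays were all above control, and rhPBEF replicate 3 was not. The difference with rhPBEF & VALI was 0.90 ± 0.23 (SE, 1.87-fold, limma adjusted p = 0.0647), with rhPBEF 0.52 (limma adjusted p = 0.386) and with VALI 0.47 (limma adjusted p = 0.439). The first of these passed without rhPBEF & VALI replicate 3 or rhPBEF replicate 3 (limma adjusted p = 0.0213 and 0.0378), with 1 probe set per gene (0.0435) and with only the groups compared (0.0421). Its limma adjusted p reached 0.249 when other single arrays were left out. The second Il1r1 probe set, 1459777_at, stayed between 3.37 and 3.69 on all 12 arrays, a mean level below that of 98.3% of probe sets, and the table holds no detection calls to tell such a level from background.

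Il1rap, the accessory chain shared by the receptors for IL-1 and IL-33, had 5 probe sets, of which 3 had mean levels below the 40th percentile of the array. The brightest, 1421844_at, had levels of 8.75, 8.70 and 8.45 in rhPBEF & VALI lungs, 8.59, 8.41 and 8.37 in rhPBEF lungs, 8.69, 8.49 and 8.16 in VALI lungs and 8.21, 8.44 and 8.35 in control lungs. The rhPBEF & VALI arrays were above control, the nearest pair by 0.0092, and the other groups overlapped control. Its difference with rhPBEF & VALI was 0.29 ± 0.13 (SE, limma adjusted p = 0.258). Over the 5 probe sets the differences from control ran from -0.17 to 0.47 with rhPBEF & VALI, from -0.06 to 0.40 with rhPBEF and from -0.08 to 0.40 with VALI, and none passed. The probe sets did not share a sign: 1421843_at was the negative one in each comparison.

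Il18r1, the ligand-binding chain of the IL-18 receptor, had levels of 11.01, 10.83 and 10.37 in rhPBEF & VALI lungs, 10.81, 10.68 and 10.18 in rhPBEF lungs, 10.62, 10.53 and 10.64 in VALI lungs and 10.21, 10.22 and 10.48 in control lungs. The VALI arrays were above control without overlap, and the 2 groups given rhPBEF overlapped it. The differences from control were 0.43 ± 0.18, 0.25 ± 0.18 and 0.29 ± 0.18 with rhPBEF & VALI, rhPBEF and VALI (SE, limma adjusted p = 0.219, 0.612 and 0.534), and none passed.

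Over the 16 member probe sets the median difference from control was 0.57 with rhPBEF & VALI, 0.42 with rhPBEF and 0.36 with VALI, against medians of -0.02, -0.04 and 0.00 over all probe sets. In each comparison 13 of the 16 were higher. With rhPBEF & VALI, 9 were higher without overlap with control, against 11.4% of all probe sets. With rhPBEF, 8 were, against 7.61% of all, and with VALI, 6 were, against 9.2% of all. Probe sets of the same gene are not independent of each other, and for a single member the smallest two-sided p of an exact permutation test, 3 arrays against 3, is 0.1. The count of members called with rhPBEF & VALI, in either direction, was 5 in the fit reported. It was 0, 0 and 1 without control replicates 1, 2 and 3, 0 without rhPBEF & VALI replicate 1 or 2, and 8 without rhPBEF & VALI replicate 3. The count of 1 with rhPBEF was 0 without any 1 control array or without rhPBEF replicate 1 or 2, 2 without VALI replicate 1 or rhPBEF & VALI replicate 1, 3 without VALI replicate 2 or 3, and 4 without rhPBEF & VALI replicate 3.

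**Figure D3:**
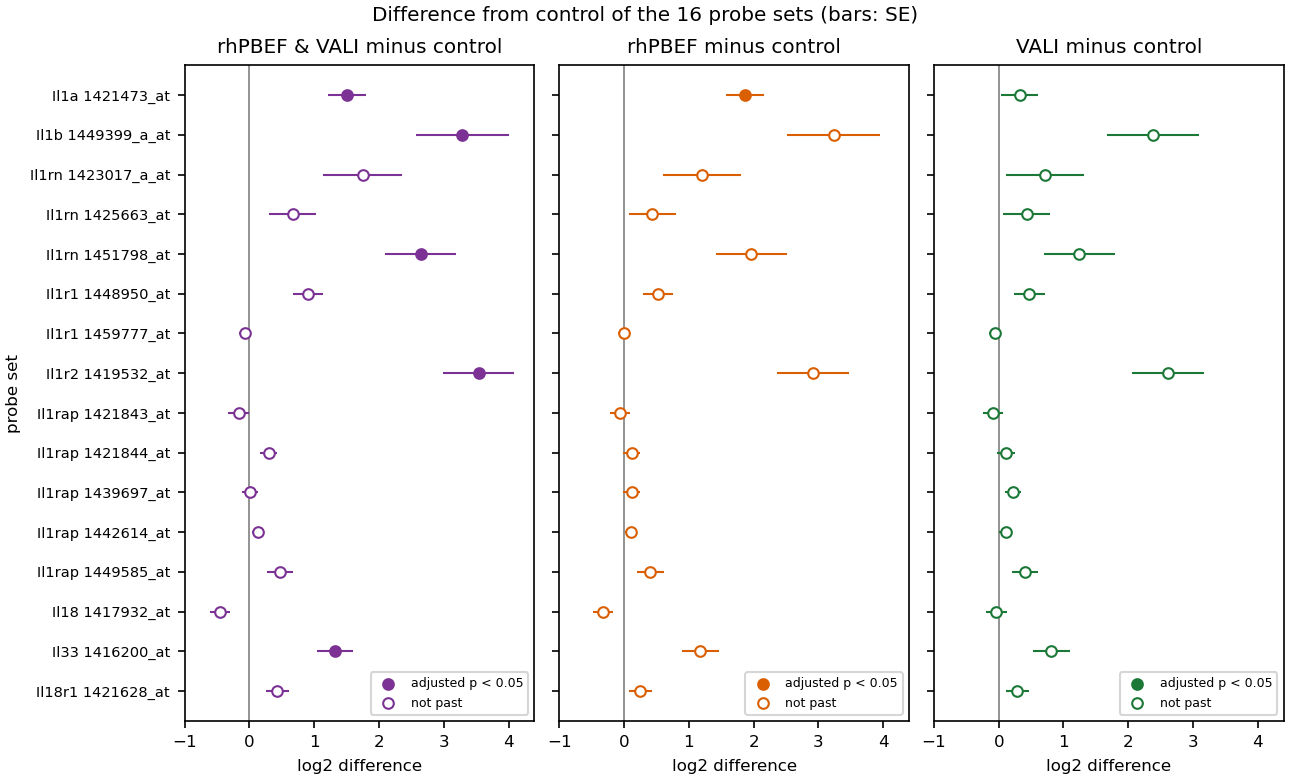
Difference from control on the log2 scale, with bars of 1 standard error from limma, for the 16 IL-1 family probe sets, in the order rhPBEF & VALI, rhPBEF and VALI (filled points have an adjusted p under 0.05). The 5 filled points with rhPBEF & VALI are Il1r2, Il1b, Il1rn 1451798_at, Il1a and Il33, the 1 filled point with rhPBEF is Il1a, and 0 points are filled with VALI.

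Adding ventilation to rhPBEF, or rhPBEF to ventilation, moved 0 members past the threshold. Between rhPBEF & VALI and rhPBEF lungs the largest differences were 0.68 for Il1rn (1451798_at) and 0.62 for Il1r2, the median over the 16 was 0.10, and 0 members were separated without overlap, against 6.54% of all probe sets that were higher without overlap. In that comparison limma called 0% of all probe sets higher, and 0 members had an unadjusted p under 0.05. Between rhPBEF & VALI and VALI lungs the median was 0.21, and limma called 0 members and 0.133% of all probe sets higher. At an unadjusted p under 0.05 there were 3 members, Il1a and Il1rn (1451798_at) higher and Il18 lower, and 3876 of the 45037 probe sets. Between rhPBEF and VALI lungs limma called 0 members and 0.18% of all probe sets higher, and 1 member, Il1a, and 5709 of the 45037 probe sets had an unadjusted p under 0.05. Without rhPBEF & VALI replicate 3, Il1a and Il1rn (1451798_at) passed between rhPBEF & VALI and VALI lungs (limma adjusted p = 0.0194 and 0.0328). Leaving out other single arrays took these values up to 0.763 and 0.858.

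The interaction asked whether the effect of rhPBEF differed with and without ventilation. A negative value means that the rhPBEF difference was less positive, or more negative, in ventilated lungs. The value was negative for 15 of the 16 probe sets, while 56.8% of all probe sets were positive. Several of the 15 lay within 1 SE of 0, such as Il18 (-0.09 ± 0.23), and probe sets of the same gene are not independent. The interaction was -2.33 ± 1.01 for Il1b and -1.99 ± 0.78 for Il1r2 (SE, limma adjusted p = 0.999 for both). These were the 2 members with an unadjusted p under 0.05. Limma called 0 of the 16, and 0% of all probe sets higher, with 1157 of all probe sets at an unadjusted p under 0.05. The interaction of Il1rn (1451798_at) was -0.56 and turned to 0.16 without rhPBEF & VALI replicate 3.

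Neutrophil markers moved beside the members. Of 12 listed neutrophil genes 10 had a probe set, and of these 4 rose with rhPBEF & VALI (S100a8, S100a9, Csf3r and Clec4d), 2 with rhPBEF (S100a8 and S100a9) and 0 with VALI by limma, and all 10 differences from control were above 0 in each comparison. Their mean level was 9.58 to 11.17 in rhPBEF & VALI lungs, 9.82 to 10.17 in rhPBEF lungs, 8.75 to 10.54 in VALI lungs and 7.99 to 8.27 in control lungs. The array nearest to control was VALI replicate 3, of the pair high in muscle genes, 0.59 above the control mean. It was also the treated array with the lowest Il1a, Il1b, Il33, Il1r2 and Il1rn (1451798_at and 1423017_a_at). The highest was rhPBEF & VALI replicate 1, 3.02 above the control mean, also the highest array for Il1b, Il1r2, Il33 and all 3 Il1rn probe sets. On VALI replicates 1 and 2 the neutrophil markers were 2.39 and 2.34 above the control mean while Il1a was 0.36 and 0.67 above its own. The 4 markers that rose with rhPBEF & VALI became 0, 0 and 1 without control replicates 1, 2 and 3, and 0 without rhPBEF & VALI replicate 1 or 2. The 2 that rose with rhPBEF became 0 without any 1 control or rhPBEF array or without rhPBEF & VALI replicate 2, and 5 without VALI replicate 3. Without VALI replicate 3, 5 markers rose with VALI too. The part of incoming cells in the members' differences was not tested, and in whole lung a change in the number of cells of a type cannot be told apart from a change of RNA per cell.

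**Figure D4:**
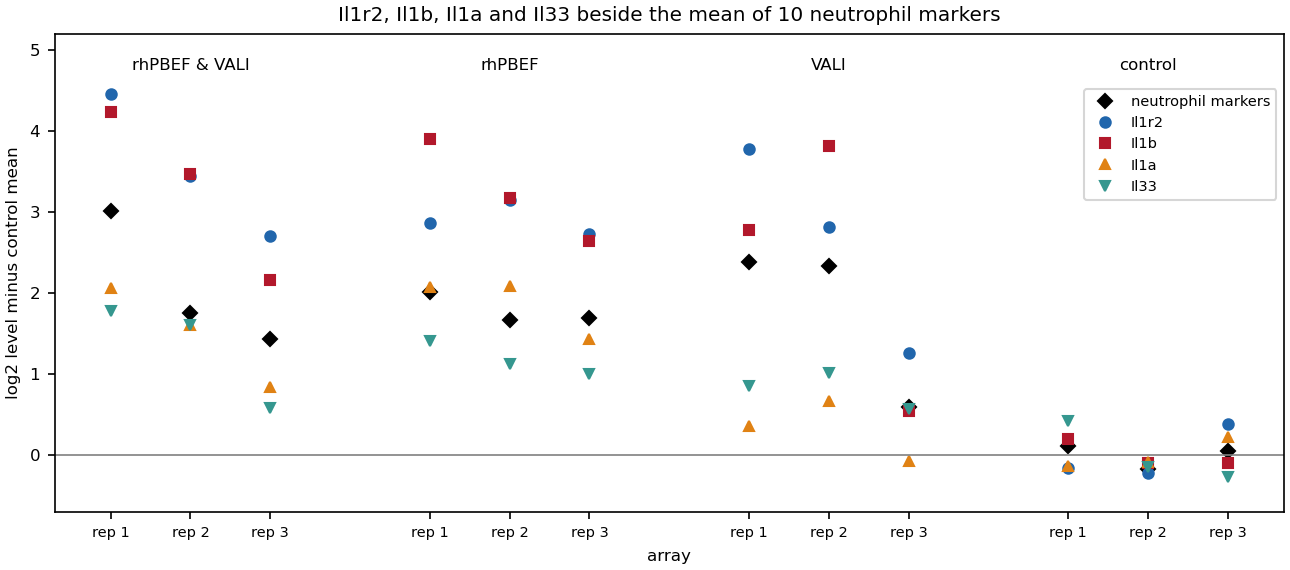
Difference from the control mean on the log2 scale on each of the 12 arrays, for Il1r2, Il1b, Il1a, Il33 and the mean of 10 neutrophil marker genes, with groups from left to right rhPBEF & VALI, rhPBEF, VALI and control. Among treated arrays the neutrophil marker mean is highest on rhPBEF & VALI replicate 1 (3.02) and lowest on VALI replicate 3 (0.59), and on VALI replicates 1 and 2 it is well above Il1a.

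The other marker lists had smaller median differences from control than the neutrophil markers. Some still varied between arrays, such as B cell markers (7.37 to 8.61) and skeletal muscle markers (6.15 to 9.73). Alveolar macrophage markers averaged 10.02 to 10.10 in rhPBEF & VALI lungs, 10.16 to 10.34 in rhPBEF lungs, 9.70 to 10.03 in VALI lungs and 9.90 to 10.24 in control lungs. Among the 6 of them with a probe set, Marco rose and Siglecf fell with rhPBEF & VALI, and Marco rose with rhPBEF. Mast cell markers, whose cells respond to IL-33, averaged 6.28 to 6.44, 6.31 to 6.46 and 6.22 to 6.43 in rhPBEF & VALI, rhPBEF and VALI lungs, and 6.34 to 6.61 in control lungs. Markers of group 2 innate lymphoid and Th2 cells averaged 5.80 to 5.98, 5.70 to 6.01 and 5.90 to 5.94 in those treated groups, and 5.89 to 6.00 in control lungs. None of either list passed. Monocyte markers averaged 11.33 on rhPBEF & VALI replicate 1 and 11.02 on VALI replicate 1, against 10.26 to 10.44 on the other 10 arrays, and 0 of the 4 with a probe set passed. Of the endothelial markers, Eng fell with rhPBEF & VALI by 0.67 (limma adjusted p = 0.00654). Its difference from control was -0.66 with VALI (limma adjusted p = 0.0937) and -0.13 with rhPBEF (0.614), and neither passed. Eng was 0.53 higher in rhPBEF lungs than in VALI lungs (limma adjusted p = 0.0434). Markers of alveolar type 1 and type 2 cells, fibroblasts, T cells, B cells, NK cells and skeletal muscle held 0 genes past the threshold in the comparisons with control. The calls of Marco and Siglecf with rhPBEF & VALI were lost without any 1 control array or rhPBEF & VALI replicate 1 or 2, that of Siglecf also without any 1 rhPBEF array, and that of Marco with rhPBEF without any 1 control or rhPBEF array or the muscle pair.

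Of the rest of the family, 7 of 11 listed genes had a probe set, and 1 rose with rhPBEF & VALI, 0 with rhPBEF and 0 with VALI. That gene was Il18rap, the signalling chain of the IL-18 receptor and the last gene of the chromosome 1 row. Its level was 9.88, 9.15 and 8.58 in rhPBEF & VALI lungs, 9.29, 9.24 and 8.70 in rhPBEF lungs, 8.97, 8.42 and 8.40 in VALI lungs and 7.48, 7.76 and 7.75 in control lungs. All treated arrays were above control, and the rise with rhPBEF & VALI was 1.54 ± 0.29 (SE, 2.90-fold, limma adjusted p = 0.0223). The rise was lost without control replicate 1, 2 or 3 (limma adjusted p = 0.101, 0.0821 and 0.0599) and without rhPBEF & VALI replicate 1 or 2 (0.0719 and 0.0776). Its partner chain Il18r1 did not pass in that comparison. The IL-18 inhibitor Il18bp differed by 0.44 and the inhibitory receptor Sigirr by -0.33 (limma adjusted p = 0.209 and 0.122), and Il1f10 by 0.07.

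Of the genes of inflammasomes and cytokine processing, 10 of 12 had a probe set, and 1 rose with rhPBEF & VALI, 1 with rhPBEF and 0 with VALI. Casp4, which encodes the mouse caspase-11 that senses lipopolysaccharide inside the cell, had levels of 10.97, 10.55 and 9.59 in rhPBEF & VALI lungs, 10.30, 10.25 and 9.79 in rhPBEF lungs, 9.52, 9.71 and 8.86 in VALI lungs and 8.54, 8.54 and 8.26 in control lungs. All 9 treated arrays were above control. It rose by 1.92 ± 0.31 with rhPBEF & VALI and by 1.67 ± 0.31 with rhPBEF (SE, limma adjusted p = 0.014 and 0.0491). With rhPBEF & VALI the adjusted p was 0.0598 and 0.0613 without control replicates 1 and 2, and 0.0569 and 0.0656 without rhPBEF & VALI replicates 1 and 2. With rhPBEF it stayed under the threshold only without VALI replicate 2 or 3 or rhPBEF & VALI replicate 1 or 3, and reached 0.205 without rhPBEF replicate 2 and 0.156 without the pair of arrays high in muscle genes. The sensor Nlrp3 differed by 1.08 (limma adjusted p = 0.0677), the adaptor Pycard by 0.16, and Elane, a neutrophil protease able to cut IL-1 family precursors, by -0.19, and none of these passed.

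Of the receptor signalling genes, 14 of 16 had a probe set, and 2 rose with rhPBEF & VALI, 0 with rhPBEF and 0 with VALI. Myd88, the adaptor of the IL-1 and Toll-like receptors, had levels of 11.65, 11.24 and 10.66 in rhPBEF & VALI lungs, 11.20, 11.14 and 10.82 in rhPBEF lungs, 10.66, 10.84 and 10.39 in VALI lungs and 9.92, 9.93 and 10.10 in control lungs. It was higher on all treated arrays and rose by 1.21 ± 0.21 with rhPBEF & VALI (SE, limma adjusted p = 0.018). Map3k8, a kinase downstream of these receptors, rose by 1.57 ± 0.29 (limma adjusted p = 0.0228). Without control replicates 1 and 2 and rhPBEF & VALI replicates 1 and 2 in turn, the adjusted p of Myd88 was 0.0806, 0.0805, 0.0652 and 0.0748 and that of Map3k8 0.0874, 0.0775, 0.0882 and 0.0789, and Map3k8 was also lost without control replicate 3 (0.0716). Irak3, an inhibitor of the pathway, differed by 1.11 (limma adjusted p = 0.144) and the kinase Irak2 by 0.39 (limma adjusted p = 0.158), and neither passed.

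All 16 listed genes that IL-1 is known to induce had a probe set, and 13 rose with rhPBEF & VALI, 10 with rhPBEF and 0 with VALI by limma. Their median difference from control was 2.50, 2.38 and 0.69 in those comparisons. Leaving out 1 array at a time gave 9 to 14 genes with rhPBEF & VALI and 6 to 12 with rhPBEF, the lowest count with rhPBEF being without control replicate 2 or rhPBEF replicate 2. Against VALI lungs, 7 rose with rhPBEF & VALI and 5 with rhPBEF. These genes are also induced by Toll-like receptors and by tumour necrosis factor, and the list was chosen with results of these arrays known, so its direction is not independent evidence. Il6, an acute-phase cytokine, had levels of 11.66, 10.32 and 11.09 in rhPBEF & VALI lungs, 8.89, 10.45 and 8.61 in rhPBEF lungs, 7.65, 10.30 and 7.78 in VALI lungs and 4.63, 4.59 and 4.61 in control lungs. Every treated array was above control, and VALI replicate 2 stood well above the other 2 VALI arrays. Differences with rhPBEF & VALI were 6.41 for Il6, 7.28 for the neutrophil chemokine Cxcl2, 5.29 for the acute-phase protein Saa3 and 4.33 for the chemokine Cxcl1. The 3 probe sets of Cxcl1 differed in size, from 1.37 to 6.72.

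The genes whose levels followed each member most closely were taken by Pearson correlation over the 12 arrays, as a description, since the points share groups and arrays. For Il1a they were Cxcl10 (r = 0.97), Hpx (0.97) and Icam1 (0.96). For Il1b they were Lcp1 (0.98), Syk (0.97) and Clec4e (0.97), and for Il1r2 Tlr13 (0.99), Clec4e (0.97) and Cd300lf (0.97). For Il1rn they were Lcp2 (0.99), Gch1 (0.98) and Casp4 (0.98), and for Il33 Sting1 (0.96), Xbp1 (0.96) and Casp4 (0.96). Il1r1 was closest to Vcam1 (0.97), Snhg1 (0.97) and Odc1 (0.96), and Il18r1 to Rrp15 (0.96), Rpl12 (0.96) and Srpr (0.95). The closest genes to Il18 were Pdcd7 (0.94), Rap1gap (0.91) and P2rx4 (0.90), and to Il1rap Pilra (0.92), Slc2a1 (0.87) and Zbp1 (0.87).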

How the data were processed

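The authors deposited log2 values, 1 per probe set and array, normalised between arrays. The submitters' processing notes name MAS5 and GCRMA without role or version, and the scaling is not given in the sources used here. Groups came from the sample titles. The description field was ignored, since it describes all 12 arrays as control animals.

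Of 45101 probe sets 64 controls were left out, and 45037 were tested with no filter on level. Of these 34945 carried 1 symbol, 932 several and 9160 none, by GEO's platform annotation. Limma 3.58.1 in R 4.3.3 fitted 4 group means (8 residual and 3.26 prior degrees of freedom), with 7 comparisons and Benjamini-Hochberg adjustment over all probe sets in each, and the steps were tested on simulated data. The array number limits the precision.

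Named were all members, the 4 genes of each pathway list with the largest absolute difference between rhPBEF & VALI and control (by the probe set of highest mean) and the 3 closest genes to each member. Members, lists, tests and alternatives were chosen with earlier results of these data known. Same-numbered arrays deviated together weakly and unevenly (r from -0.14 to 0.36, above 0.1 in 7 of 18 pairs). The mean r was 0.07, against -0.03 for arrays of other numbers. Replicate 3 of rhPBEF & VALI deviated with replicate 3 of VALI (r = 0.35) and of rhPBEF (0.36), while those of VALI and rhPBEF did not (-0.08). Replicate numbers were not used as pairs in the fit reported, and a shared replicate effect was not tested. Alternatives changed the filter, unit, normalisation, variance model, weights, replicate block and arrays. Matching through Entrez identifiers updated 0 symbols. Python 3.11.15 and matplotlib 3.10.9 drew the figures.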

Additional observations from a re-analysis of the deposited data

How the results depend on the processing

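With array weights limma called 11186 probe sets for rhPBEF & VALI against control (1358 in the fit reported), 1463 for rhPBEF (209), 221 for VALI (4), 683 for rhPBEF & VALI against VALI (63), 13 for rhPBEF & VALI against rhPBEF (0) and 217 for rhPBEF against VALI (112), with 11, 5, 1, 1, 0 and 1 members called. Only the groups compared gave 794 for rhPBEF (5 members), 0 for VALI, 2 for rhPBEF & VALI against VALI and 52 for rhPBEF against VALI. Without the pair of arrays high in muscle genes there were 80 for rhPBEF (0 members), 25 for VALI, 36 for rhPBEF & VALI against VALI and 49 for rhPBEF against VALI. With 1 probe set per gene there was 1 for VALI, 1 for rhPBEF & VALI against rhPBEF, and 1 member for rhPBEF against VALI. The rhPBEF members called were 2 with the filter, 1 probe set per gene, median centring or an intensity trend. For rhPBEF & VALI against control the 5 members were 6 with 1 probe set per gene or the replicate block and 4 with only the groups compared or without the muscle pair. The replicate block gave 4 members for rhPBEF in place of 1, and 2 probe sets for VALI. Replicate numbers were not used as pairs in the fit reported. The causes were not tested. Leaving out arrays for the counts over pathway and marker lists was chosen after seeing the data.

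Leaving out each array in turn gave 142 to 3705 probe sets for rhPBEF & VALI (0 to 8 members), 44 to 445 for rhPBEF (0 to 4), 0 to 46 for VALI (0 to 1), 15 to 475 for rhPBEF & VALI against VALI (0 to 2), 0 to 1 for rhPBEF & VALI against rhPBEF (0 to 0), 25 to 244 for rhPBEF against VALI (0 to 1) and 0 to 0 for the interaction. Single results tracked here include many that did not pass in the fit reported, and these count as kept where they still did not pass. Losses can fall only on results that had passed, so the number kept does not measure how stable the calls were. Of 1155 alternatives for 53 single results, 1044 kept direction and side of the threshold, 52 newly passed, 52 no longer passed and 7 reversed. Those, with the range over arrays left out, were Il1b in rhPBEF & VALI against VALI (-0.0117 without VALI replicate 3 and without the muscle pair, range -0.0117 to 1.62), Il1b in rhPBEF against VALI (-0.0615 and -0.0293, range -0.0615 to 1.57), Il1rn (1423017_a_at) in rhPBEF & VALI against rhPBEF (-0.0956 without rhPBEF & VALI replicate 1, range -0.0956 to 1.32), the Il1rn (1451798_at) interaction (0.16 without rhPBEF & VALI replicate 3, range -1.16 to 0.16) and Pycard with rhPBEF & VALI (-0.00768 without its replicate 1, range -0.00768 to 0.303).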
